A study of Mus musculus with 8 samples.

Results

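The 83 protein-coding histone genes of the count table were examined in 8 RNA-seq libraries of a mouse epicardial cell line, the cell type that covers the surface of the heart. They were taken by name from 35275 listed genes, 22026 of them protein-coding. Of the 83 genes, 68 carry cluster names (Hist1h to Hist4h) and are called replication-dependent here, and 15 carry names beginning H1f, H3f or H2af and are called replacement genes. The libraries fall into 2 groups of 4. KO cells had received a lentivirus with an sgRNA directing CRISPR/Cas9 at Hdac3, the deacetylase subunit of the NCoR corepressor complex, and EV cells had received the empty lentiviral vector. Both groups were the same labelled line grown in high-glucose medium with fetal bovine serum. The labels do not say whether the KO cells were 1 clone, or whether each replicate was a culture of its own, so p-values here measure only the spread between these libraries. KO replicate 1 is KO by its title, while its transduction label names the empty vector, and it was grouped by title.

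Nucleosomes wrap DNA around the core histones H2A, H2B, H3 and H4, and the linker histone H1 binds between them. Replication-dependent histone genes lie in clusters and are transcribed in S phase with NPAT. Their mRNAs usually lack introns and a poly(A) tail and end just after a conserved stem-loop bound by SLBP. Replacement genes lie apart, give polyadenylated mRNAs and are mostly expressed throughout the cell cycle, and their proteins are deposited in chromatin outside replication. Some replication-dependent genes are also known to give polyadenylated mRNAs in cells that have left the cycle.

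The stem-loops are shown because the 2 classes differ in this element. On the annotated transcripts (GENCODE M21, mm10), 41 of the 50 replication-dependent genes with a 3' UTR of at least 16 bases held a match in it (82%), against 1 of 13 replacement genes. Among all other protein-coding genes, 17 of 20918 held a match (0.0813%). The 41 genes had 6 stem-loops, printed 5' to 3' on the transcript strand in DNA letters. Capitals mark the 11 bases that the search held fixed, and lower case marks the 5 that could vary.
Shared by 23 H1, H2A, H2B and H3 genes, Hist1h1c among them: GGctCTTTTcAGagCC
Shared by 7 H4 genes: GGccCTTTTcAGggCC
Shared by 6 H1, H2B and H3 genes: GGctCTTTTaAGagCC
Shared by 2 H4 genes, Hist1h4b and Hist1h4j: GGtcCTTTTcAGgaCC
Shared by 2 H4 genes, Hist1h4i and Hist2h4: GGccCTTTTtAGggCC
In 1 H2A gene, Hist2h2ac: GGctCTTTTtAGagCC
In the replacement gene H2afx: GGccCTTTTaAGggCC
In each of these the variable bases of the stem were complementary to each other, and the remaining variable base lies in the loop. H4 genes shared none of their stem-loops with genes of the other core histones. The stem-loop began 21 to 58 bases after the stop codon in the replication-dependent genes, with a median of 32, and 46 bases after it in H2afx.

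Promoter motifs differed in frequency between the classes, described here with no test. In RefSeq windows of 250 bases before to 50 after the start (GRCm38.p6), CCAAT on either strand was present in 85.2% of 61 replication-dependent promoters (60 genes), 64.3% of 14 replacement promoters and 37.4% of all 32851 promoters. TATAAA on either strand was present in 55.7%, 7.14% and 13.6% of the same 3 sets. The first promoter below is shown because it spans the gap between Hist2h2ac and Hist2h2be, which are annotated head to head, and Hist2h2be is the replication-dependent gene whose level differed between the groups. H3f3b was the most abundant histone mRNA, and H2afj had the largest increase. Capitals mark both motifs on either strand.
Hist2h2ac, chr3:96220831-96221130, minus strand: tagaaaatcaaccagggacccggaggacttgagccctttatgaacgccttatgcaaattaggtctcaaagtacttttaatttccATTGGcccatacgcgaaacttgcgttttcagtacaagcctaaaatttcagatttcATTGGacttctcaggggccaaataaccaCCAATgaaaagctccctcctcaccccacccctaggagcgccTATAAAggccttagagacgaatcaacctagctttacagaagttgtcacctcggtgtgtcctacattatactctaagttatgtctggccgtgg
H3f3b, chr11:116024455-116024754, minus strand: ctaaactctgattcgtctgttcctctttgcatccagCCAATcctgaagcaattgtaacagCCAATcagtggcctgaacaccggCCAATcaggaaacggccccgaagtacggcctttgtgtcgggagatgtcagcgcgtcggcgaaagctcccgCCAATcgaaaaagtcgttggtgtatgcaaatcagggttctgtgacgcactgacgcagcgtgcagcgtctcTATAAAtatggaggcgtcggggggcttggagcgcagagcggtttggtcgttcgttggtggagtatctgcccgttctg
H2afj, chr6:136807998-136808297, plus strand: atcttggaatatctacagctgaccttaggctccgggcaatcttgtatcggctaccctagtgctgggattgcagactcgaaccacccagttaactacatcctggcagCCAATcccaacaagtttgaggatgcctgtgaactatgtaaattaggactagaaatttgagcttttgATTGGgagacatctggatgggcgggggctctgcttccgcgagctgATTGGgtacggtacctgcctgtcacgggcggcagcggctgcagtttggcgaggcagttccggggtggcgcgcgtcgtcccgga
The Hist2h2ac window held 3 CCAAT matches and 1 TATAAA match, the H3f3b window 4 and 1, and the H2afj window 3 CCAAT matches and no TATAAA. Of the 14 replacement promoters, that of H3f3b alone held TATAAA, and its RefSeq start lies inside the span that the count table gives the gene. These matches describe the windows and were not tested as binding sites.

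Library totals ran from 19173812 to 24564892 counts in KO and from 18063745 to 22289125 in EV. Of 14 epicardial markers, 12 had a mean of at least 1 CPM (counts scaled by TMM to a common total). Gata5 was at 0 and Aldh1a2 stayed under 0.47 CPM. The 14 summed to 4931 to 5089 CPM in KO and 4844 to 5121 CPM in EV, but members moved apart. Wt1, Tcf21, Upk3b and Gata4 were lower in every KO library than in any EV library, and Msln, Krt8, Krt18, Krt19 and Aldh1a1 were higher. Aldh1a1 was so only narrowly, at 545 to 570 CPM in KO and 497 to 542 CPM in EV. The groups did not overlap for 26.5% of all tested genes. Upk3b was at 1429 to 1524 CPM in KO and 1746 to 1917 CPM in EV. Msln was at 897 to 954 CPM in KO and 646 to 707 CPM in EV. Of other cell types, 3 of 8 cardiomyocyte markers had a mean of at least 1 CPM, with list sums of 112 to 129 CPM in KO and 145 to 158 CPM in EV, nearly all from Tnnt2, while Nppa was at 0. The endothelial list summed to 19.0 to 21.3 CPM in KO and 24.7 to 28.6 CPM in EV (2 of 6, Kdr and Tek, at 1 CPM or more), with Pecam1 and Cdh5 below 0.33 CPM in every library. The haematopoietic list summed to 9.73 to 11.02 CPM in KO and 6.08 to 7.31 CPM in EV (2 of 4, Cd68 and Csf1r), with Ptprc below 0.06 CPM. The 10 liver markers summed to 7.86 to 20.2 CPM in KO, highest in KO replicates 2 and 3, and to 4.02 to 6.90 CPM in EV. The part of these marker lists in the results was not tested, and counts without KO replicates 2 and 3 are given below. Hdac3 itself stood at 63.2, 56.9, 63.9 and 62.6 CPM in KO replicates 1 to 4 and at 60.3, 61.4, 64.0 and 61.7 CPM in EV replicates 1 to 4 (log2 fold change −0.005, SE 0.0528, edgeR adjusted p = 0.956). A Cas9 edit can disable a protein and leave its transcript in place, so this level is no check of the group labels.

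Replacement genes supplied nearly all histone mRNA counted. Over the 8 libraries they held 239395 of 251781 histone counts (95.1%), and the 68 replication-dependent genes held 12386 (4.92%), of which Hist1h1c alone had 8829. Summed by library, replacement genes reached 1461, 1476, 1483 and 1393 CPM in KO replicates 1 to 4, against 1471, 1389, 1369 and 1216 CPM in EV replicates 1 to 4. The group ranges overlapped, and EV replicate 4 was the lowest of the 8. Replication-dependent genes summed to 68.2, 71.0, 79.0 and 72.5 CPM in KO replicates 1 to 4, against 77.9, 72.8, 75.4 and 64.3 CPM in EV replicates 1 to 4. Their means, 72.7 ± 4.57 in KO and 72.6 ± 5.91 CPM in EV (SD, n = 4 each), differed by less than either SD. Hist1h1c carried 71.3% of the class's counts, and the other 67 genes summed to 20.4, 19.0, 20.3 and 17.4 CPM in KO replicates 1 to 4, against 24.2, 23.4, 21.7 and 21.4 CPM in EV replicates 1 to 4. Without Hist1h1c every KO library thus lay below every EV library (19.3 ± 1.42 CPM in KO and 22.7 ± 1.37 CPM in EV, SD, n = 4 each). This sum over members was not tested. It includes Hist2h2be, which had 2.02 CPM in KO replicate 1 and 4.13 CPM in EV replicate 4. With Hist2h2be taken out too, these libraries change order and the groups overlap. On the authors' FPKM scale, which divides by length and total counts and has no correction for composition, the replacement sum averaged 669 in KO and 673 in EV and the replication-dependent sum 58.5 in KO and 62.1 in EV.

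Few replication-dependent genes were measurable. All 8 libraries held a count for 19 of the 68 genes, and for 9 genes no library held any. In between, 59 genes had at least 1 count in some library, 49 had at least 3, 19 had at least 10, and 5 had at least 10 in every library. Only 7 of the 68 passed the filter on low counts, and these 7 held 91.7% of the class's counts, whereas 10 of the 15 replacement genes passed. The replacement genes without a count were H1fnt, H2afb1, H2afb2 and H2afb3, known for expression in testis, and the oocyte linker histone H1foo had 4 counts in all. A count of 3, taken as the floor of detection, equals 0.122 to 0.166 CPM depending on the library, so a gene listed at 0 may still be expressed below that. This floor covers counting error only. The labels give total RNA as the molecule, and the sample titles end in mRNA-seq, which does not name a selection method. The sources used here give no poly(A) selection step, so the low counts of genes whose mRNAs end at a stem-loop cannot be set against a known selection.

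Counts tended to be higher where the annotated transcript runs on past the stem-loop, with exceptions, taking the longest coding transcript of each gene. The count table gives some of these genes a shorter span than that transcript, so reads past the span may not have been counted. Hist1h1d spans 744 bases there against 7425 in the annotation, Hist1h2ac 476 against 2482 and Hist1h2bg 477 against 618. Hist1h1c (1560 bases) and Hist3h2a (2146 bases) have the same length in both. In 20 stem-loop genes the transcript ends within 100 bases of the stem-loop, and these genes had 0 to 49 counts summed over 8 libraries, with a median of 7, and none passed the filter. In the other 21 the transcript runs on for 151 to 4884 bases, and these had 0 to 8829 counts, with a median of 30, and 4 passed: Hist1h1c, Hist3h2a, Hist1h4i and Hist1h2bg. Most of the 21 stayed low. Hist2h4 runs on for 1257 bases and Hist4h4 for 2445, both with a polyadenylation signal and mostly unique sequence, and they had 3 and 8 counts. A polyadenylation signal (AATAAA or ATTAAA) followed the stem-loop in 15 genes, whose median was 38 counts, while the 26 without one had a median of 8. Hist2h2be and Hist1h2bc, which also passed, had a signal and no stem-loop match in the annotated 3' UTR, and Hist1h2al had no coding transcript in the annotation used. Length and sequence uniqueness moved with the same split. The 20 short-ended transcripts had a median length of 481 bases and a median of 33.6% of their 50-base words found in no other gene, against 1249 bases and 75.4% for the 21 that run on. The part of length and shared sequence in the counts was not tested.

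**Figure D1:**
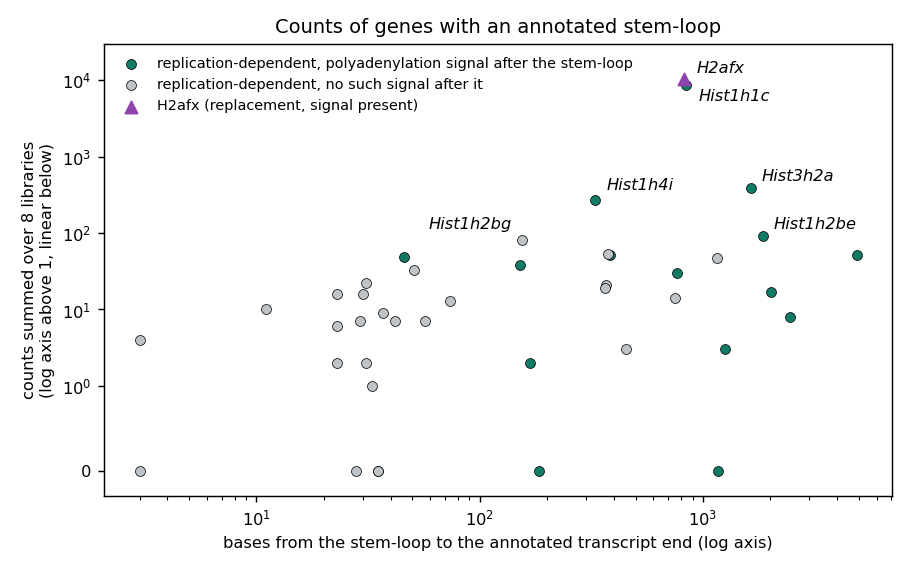
Counts summed over the 8 libraries (vertical, log axis above 1) against the bases from the stem-loop to the annotated transcript end (horizontal, log axis) for the 41 replication-dependent genes and H2afx, 1 point each; green points have a polyadenylation signal after the stem-loop. All genes that end within 100 bases lie at 49 counts or fewer, while Hist1h1c (8829) and H2afx (10506) end 840 and 822 bases past it. Hist2h4 (3) and Hist4h4 (8), which are not named in the plot, end 1257 and 2445 bases past it. Ends are those of the longest annotated coding transcript, which for some genes runs past the span given in the count table.

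Near-identical copies limit what a single member's count means. Over all 64 replication-dependent genes with a coding transcript, the median share of 50-base words found in no other gene was 45.5%, against 91.6% for the 15 replacement genes, and with 100-base words 62.2% against 96.7%. Of the 9 genes at 0 everywhere, Hist2h2aa1, Hist2h2aa2, Hist2h3b and Hist2h3c1 had no such word at all and Hist1h2ap had 6.93%. The sources used here do not state how reads matching several genes were counted, so a 0 in these genes cannot be told apart from reads set aside. Hist1h1t, the testis linker histone, was also at 0 although all of its words were its own.

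Per unit length, H3f3b was the most abundant histone mRNA. It averaged 231 ± 5.75 FPKM in KO and 214 ± 6.98 FPKM in EV (SD, n = 4 here and below). H2afz averaged 122 ± 5.98 FPKM in KO and 146 ± 18.7 FPKM in EV, and H1f0 averaged 121 ± 5.26 FPKM in KO and 114 ± 8.15 FPKM in EV. These 2 genes stood level in KO, and in EV their means were further apart than either SD. H3f3a averaged 49.7 ± 6.60 FPKM in KO and 45.1 ± 12.2 FPKM in EV, and H2afx 38.7 ± 2.57 FPKM in KO and 50.8 ± 3.39 FPKM in EV, so the order of their means differed between the groups, in EV by less than the SD of H3f3a. Then came Hist1h1c, H2afv, H2afy2, H2afy and H2afj, in that order in both groups, between 33.6 and 20.6 FPKM in KO and between 32.5 and 14.6 FPKM in EV. Hist1h2bc (8.83 ± 0.353 FPKM in KO, 10.5 ± 1.53 FPKM in EV) and H1fx (8.72 ± 1.41 FPKM in KO, 10.2 ± 3.70 FPKM in EV) stood level in each group. The other 5 tested genes averaged 1.90 FPKM or less in KO and 2.40 FPKM or less in EV.

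**Figure D2:**
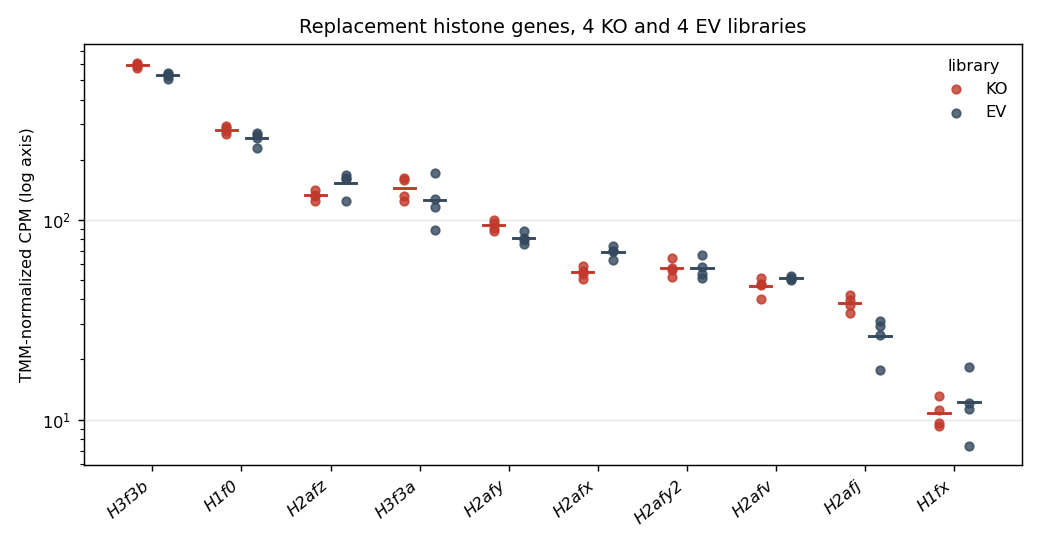
TMM-normalized CPM (log axis) of the 10 replacement genes that passed the filter, 1 point per library, KO left of EV, bars at the group means. KO and EV points do not overlap for H3f3b, H2afx and H2afj (3 of 10, against 26.5% of all tested genes), and for H3f3a and H1fx the EV points spread more widely than the KO points.

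The comparison of KO with EV asked how cells with CRISPR/Cas9 directed at Hdac3 differ from empty-vector cells. Replacement genes changed in both directions: 4 of the 10 tested were higher in KO (H2afj, H2afy, H3f3b and H1f0), 2 were lower (H2afx and H2afz) and 4 did not pass. Of the 7 tested replication-dependent genes none was higher and 1, Hist2h2be, was lower. Hist2h2be is in this class by name and has no stem-loop match, and none of the 4 tested genes with a match was called. Across all 12801 tested genes, 26.0% were called at an adjusted p under 0.05 (quasi-likelihood test of edgeR): 12.6% were higher and 13.4% were lower in KO. The median log2 fold change was 0.078 over the replacement genes, −0.28 over the replication-dependent genes and 0.005 over all genes tested. With 1 library left out, the replacement median ran from 0.0065 (without EV replicate 4) to 0.12 (without EV replicate 1), so it could fall to that of all genes, and the replication-dependent median ran from −0.42 (without KO replicate 3) to −0.13 (without EV replicate 1). With library totals as the only scaling, 1039 genes of all were higher and 2414 lower, in place of 1613 and 1711, and 2 rather than 4 replacement genes were higher.

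The largest increase was in H2afj, which encodes H2A.J, a variant known in human cells to accumulate in senescence. H2afj (ENSMUSG00000060032, mm10 chromosome 6, 136808244 to 136810070, plus strand, 1 exon) stood at 39.8, 37.5, 42.2 and 34.0 CPM in KO replicates 1 to 4, against 31.2, 29.6, 26.4 and 17.8 CPM in EV replicates 1 to 4. Every KO library lay above every EV library. The means were 38.4 ± 3.48 in KO and 26.2 ± 5.97 CPM in EV (SD, n = 4 each). The log2 fold change was 0.55 (SE 0.118, edgeR adjusted p = 0.00179), 1.46-fold higher in KO. Without EV replicate 4, the lowest library, it was 0.40 (edgeR adjusted p = 0.000275). It missed the threshold in limma on log2(FPKM + 1) with no filter (adjusted p = 0.0748).

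H2afx fell in KO. It encodes H2A.X, the variant phosphorylated around DNA double-strand breaks, and is the replacement gene with a stem-loop: its transcript runs 822 bases past it and holds a polyadenylation signal. H2afx (ENSMUSG00000049932, chromosome 9, 44334694 to 44336077, plus strand, 1 exon) stood at 55.4, 53.3, 59.1 and 50.3 CPM in KO replicates 1 to 4, against 69.4, 69.9, 74.3 and 62.6 CPM in EV replicates 1 to 4. The groups did not overlap. The means were 54.5 ± 3.66 in KO and 69.1 ± 4.83 CPM in EV (SD, n = 4 each), and H2afx fell by 0.34 on the log2 scale (SE 0.0618, edgeR adjusted p = 0.000382). It kept its direction and its call under all alternatives run, between −0.39 and −0.30.

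The H2A.Z genes differed in their calls and not detectably in their ratio. H2afz (chromosome 3, 137864487 to 137866922, plus strand) encodes the H2A.Z that replaces H2A near transcription starts and was at 132.5, 124.1, 140.9 and 131.9 CPM in KO replicates 1 to 4, against 162.1, 167.5, 159.9 and 124.2 CPM in EV replicates 1 to 4. The first 3 EV libraries lay above all KO libraries and EV replicate 4 lay among them. The fall of 0.21 on the log2 scale (SE 0.0714, edgeR adjusted p = 0.0343) lost the call when any of EV replicates 1, 2 and 3 or KO replicates 1, 2 and 4 was left out (−0.21 to −0.17). It also lost the call in limma on log2(FPKM + 1) with no filter and without KO replicates 2 and 3, so 8 alternatives lost it and 10 kept it. H2afz stayed lower in KO under all alternatives run, between −0.30 and −0.17. Only 30.4% of its 50-base words were found in no other gene, so its count is uncertain. H2afv, the second H2A.Z gene, was at 51.1, 40.3, 47.4 and 47.7 CPM in KO replicates 1 to 4, against 52.2, 49.9, 51.3 and 50.8 CPM in EV replicates 1 to 4 (log2 fold change −0.13, SE 0.0647, edgeR adjusted p = 0.149). With library totals alone it passed (−0.18, adjusted p = 0.0415), as it did in limma on log2(FPKM + 1) (adjusted p = 0.0494). The log2 ratio of H2afz to H2afv was 1.51 ± 0.111 in KO and 1.58 ± 0.198 in EV (SD, n = 4 each; exact permutation test over 70 arrangements, two-sided, p = 0.571).

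MacroH2A is an H2A with a large extra domain, found on the inactive X chromosome and other silent chromatin. H2afy, which encodes macroH2A1 (chromosome 13, 56073619 to 56136361, minus strand), was at 99.9, 90.6, 96.9 and 88.0 CPM in KO replicates 1 to 4, against 88.1, 81.5, 79.1 and 75.7 CPM in EV replicates 1 to 4. The groups met where KO replicate 4 and EV replicate 1 lay side by side. The log2 fold change was 0.21 (SE 0.0562, edgeR adjusted p = 0.00904), and the call was lost in limma on log2(FPKM + 1) (0.15, adjusted p = 0.0647) and without KO replicates 2 and 3 (0.21, edgeR adjusted p = 0.0588). The other limma fits on FPKM lost the call of H2afy too, so 4 alternatives lost it and 14 kept it. H2afy2, which encodes macroH2A2 (chromosome 10, 61738665 to 61784147, minus strand), averaged 57.6 ± 5.28 CPM in KO and 57.4 ± 7.0 CPM in EV (SD, n = 4 each; log2 fold change 0.0077, SE 0.0777, edgeR adjusted p = 0.953). It overlaps Aifm2 on the opposite strand, and reads of the 2 genes cannot be told apart without a stated strand setting. The log2 ratio of H2afy to H2afy2 was 0.80, 0.49, 0.78 and 0.76 in KO replicates 1 to 4, against 0.40, 0.60, 0.45 and 0.57 in EV replicates 1 to 4. It was higher in KO replicates 1, 3 and 4 than in any EV library and within the EV range in KO replicate 2 (exact permutation test, two-sided, p = 0.0857, 0.343 adjusted over 4 ratios).

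H3f3a and H3f3b encode the same protein, H3.3, which is laid down at active genes and at telomeres. H3f3b (ENSMUSG00000016559, chromosome 11, 116021912 to 116027962, minus strand) was at 574.2, 599.4, 608.2 and 587.1 CPM in KO replicates 1 to 4, against 538.7, 544.8, 525.2 and 508.0 CPM in EV replicates 1 to 4. The groups did not overlap and the difference was small, 0.16 on the log2 scale (SE 0.0425, edgeR adjusted p = 0.00803). The call was lost with library totals alone (0.11, adjusted p = 0.0558), in limma on log2(FPKM + 1) (0.11, adjusted p = 0.0643) and without KO replicates 2 and 3 (0.14, edgeR adjusted p = 0.0980). The other limma fits on FPKM lost it too, so 5 alternatives lost the call and 13 kept it. H3f3a (chromosome 1, 180800832 to 180813943, minus strand) was at 158.2, 161.2, 131.6 and 124.3 CPM in KO replicates 1 to 4, against 172.4, 115.9, 127.0 and 89.1 CPM in EV replicates 1 to 4. Its EV values spread 1.94-fold between replicates 1 and 4 and enclosed the KO values, and it did not pass (log2 fold change 0.19, SE 0.129, edgeR adjusted p = 0.303). H3f3a overlaps H3f3aos and Gm17275 on the opposite strand, which were given 9 and 122 counts in all. With no filter on low counts it passed (0.18, adjusted p = 0.00415). The value turned on EV libraries: it was 0.37 without EV replicate 1 (edgeR adjusted p = 0.00822) and 0.057 without EV replicate 4. The log2 ratio of H3f3a to H3f3b was −2.05 ± 0.201 in KO and −2.11 ± 0.364 in EV (SD, n = 4 each; exact permutation test, two-sided, p = 0.771).

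Of the linker histones, H1f0 encodes H1.0, which builds up in cells that stop dividing. H1f0 (chromosome 15, 79028212 to 79030498, plus strand) was at 279.1, 295.2, 288.8 and 268.6 CPM in KO replicates 1 to 4, against 271.7, 265.3, 255.3 and 229.3 CPM in EV replicates 1 to 4. The ranges overlapped slightly. The log2 difference of 0.15 (SE 0.0521, edgeR adjusted p = 0.0433) lost the call with library totals alone (0.097, adjusted p = 0.180) and when any of EV replicates 3 and 4 or KO replicates 1, 2 and 3 was left out, with 0.099 without EV replicate 4. It also lost the call in the limma fits on FPKM and without KO replicates 2 and 3, so 10 alternatives lost it and 8 kept it. H1fx, a linker histone with mRNA found in many tissues, was at 13.1, 9.65, 11.2 and 9.27 CPM in KO replicates 1 to 4, against 18.2, 11.3, 12.1 and 7.35 CPM in EV replicates 1 to 4 (log2 fold change −0.18, SE 0.184, edgeR adjusted p = 0.522). The EV values spread 2.48-fold, and without EV replicate 1 the sign turned to 0.061. The log2 ratio of H1f0 to H1fx was 4.72 ± 0.232 in KO and 4.45 ± 0.440 in EV (SD, n = 4 each; exact permutation test, two-sided, p = 0.343). With 70 arrangements the smallest p such a test allows is 0.0286, and none of the 4 ratios reached it.

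**Figure D3:**
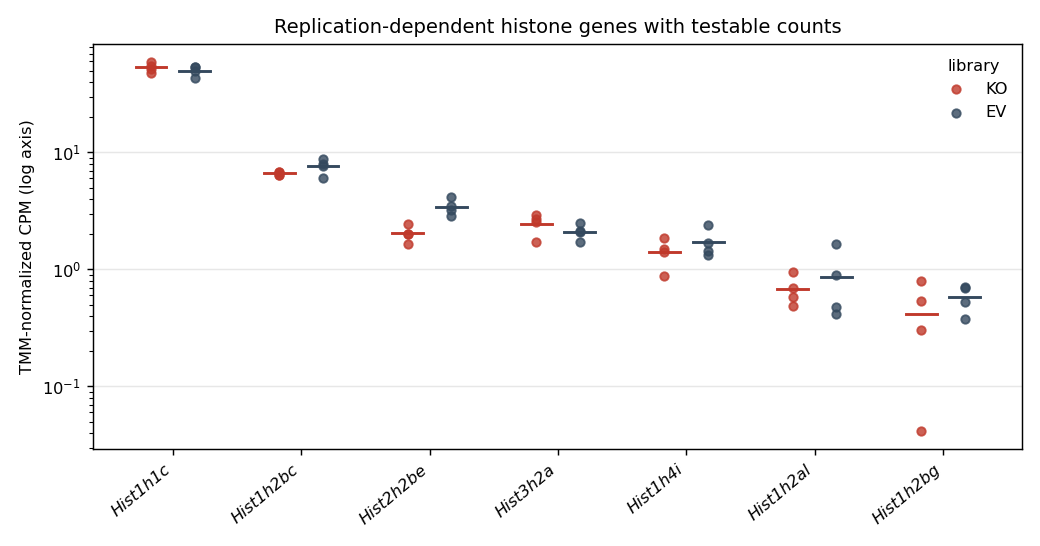
TMM-normalized CPM (log axis) of the 7 replication-dependent genes that passed the filter, 1 point per library, KO left of EV, bars at the group means. Hist1h1c stands at about 50 CPM and the other 6 below 9 CPM, and KO and EV do not overlap for Hist2h2be alone (26.5% of all tested genes did not overlap).

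Hist2h2be was the only gene classed as replication-dependent to pass the test, and its class here rests on its cluster name. It encodes an H2B (ENSMUSG00000068854, chromosome 3, 96221119 to 96223738, plus strand, 1 exon). Its annotated 3' UTR of 2192 bases holds a polyadenylation signal and no stem-loop match, so its call does not speak for genes with a stem-loop. It stood at 2.02, 2.45, 2.03 and 1.66 CPM in KO replicates 1 to 4, against 3.23, 2.88, 3.52 and 4.13 CPM in EV replicates 1 to 4. The groups did not overlap. The means were 2.04 ± 0.322 in KO and 3.44 ± 0.526 CPM in EV (SD, n = 4 each), and the level fell by 0.76 on the log2 scale (SE 0.185, edgeR adjusted p = 0.00484), 1.69-fold lower. These levels rest on 38 to 50 counts per library in KO and 59 to 87 in EV. All of its 50-base words were found in no other gene, and it kept its call under all alternatives run, between −0.91 and −0.40. Its neighbour Hist2h2ac had 1 count in all in KO and 4 and 2 counts in EV replicates 1 and 4, too few to compare.

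Hist1h1c, which encodes the linker histone H1.2, is the sixth most abundant histone mRNA here per unit length. Hist1h1c (chromosome 13, 23738808 to 23740367, plus strand) was at 47.8, 52.1, 58.8 and 55.2 CPM in KO replicates 1 to 4, against 53.6, 49.4, 53.7 and 42.9 CPM in EV replicates 1 to 4. The groups overlapped in part, with KO replicates 3 and 4 above all EV libraries and EV replicate 4 below all KO libraries (log2 fold change 0.10, SE 0.0741, edgeR adjusted p = 0.344). Hist1h2bc, an H2B gene of chromosome 13, was at 6.79, 6.86, 6.47 and 6.36 CPM in KO replicates 1 to 4, against 8.77, 6.03, 7.59 and 7.97 CPM in EV replicates 1 to 4 (log2 fold change −0.19, SE 0.123, edgeR adjusted p = 0.268). EV replicates 1, 3 and 4 lay above all KO libraries and EV replicate 2 lay below them.

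The other 4 tested genes were low and variable. Hist3h2a, an H2A gene of chromosome 11, averaged 2.46 ± 0.527 CPM in KO and 2.10 ± 0.320 CPM in EV (SD, n = 4 each; log2 fold change 0.21, SE 0.207). Hist1h4i, an H4 gene, averaged 1.41 ± 0.401 CPM in KO and 1.72 ± 0.484 CPM in EV (log2 fold change −0.28, SE 0.265). Hist1h2al, an H2A gene, averaged 0.678 ± 0.198 CPM in KO and 0.861 ± 0.565 CPM in EV (log2 fold change −0.29, SE 0.403). Hist1h2bg, an H2B gene, averaged 0.420 ± 0.323 CPM in KO and 0.578 ± 0.157 CPM in EV (log2 fold change −0.52, SE 0.499). Their edgeR adjusted p-values lay between 0.473 and 0.636, and the groups overlapped for each. Hist1h2al had 30 counts in EV replicate 1 and 9 to 22 in the other libraries, and its log2 fold change turned to 0.18 without that library. The others moved as far: Hist1h2bg lay between −1.0 (without KO replicate 1) and −0.10 (without KO replicate 4, which had 1 count), Hist1h4i between −0.45 (without KO replicate 3) and −0.065 (without EV replicate 2), and Hist3h2a between 0.086 (limma on log2(FPKM + 1)) and 0.36 (without KO replicate 4). Hist3h2a overlaps Trim17 on the same strand.

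The 61 replication-dependent genes below the filter summed to 108, 106, 139 and 135 counts in KO replicates 1 to 4, against 110, 197, 128 and 105 counts in EV replicates 1 to 4. As CPM that was 5.63 ± 0.334 in KO and 6.39 ± 1.55 in EV (SD, n = 4 each), a difference smaller than the EV spread. The highest, Hist1h2be, had 8, 8, 8 and 10 counts in KO replicates 1 to 4 and 12, 22, 7 and 16 in EV replicates 1 to 4. By core histone, replication-dependent H1 genes summed to 54.2 ± 4.67 CPM in KO and 50.7 ± 5.10 CPM in EV (SD, n = 4 each). H2A genes summed to 4.19 ± 0.833 CPM in KO and 4.01 ± 0.962 CPM in EV, H3 genes to 1.27 ± 0.323 CPM in KO and 1.39 ± 0.275 CPM in EV, and H4 genes to 2.62 ± 0.615 CPM in KO and 3.25 ± 0.997 CPM in EV. Each of these 4 differences was smaller than the SD of the EV libraries. H2B genes summed to 10.99, 11.4, 9.57 and 9.77 CPM in KO replicates 1 to 4, against 14.4, 11.8, 13.1 and 13.7 CPM in EV replicates 1 to 4. H2B was the core type whose group values did not overlap, and Hist1h2bc and Hist2h2be held 1201 and 463 of its 2001 counts. Of all tested single genes, 26.5% did not overlap. With Hist2h2be taken out, the H2B groups overlap: it had 2.02 CPM in KO replicate 1 and 2.88 CPM in EV replicate 2. These sums describe the libraries and were not tested.

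**Figure D4:**
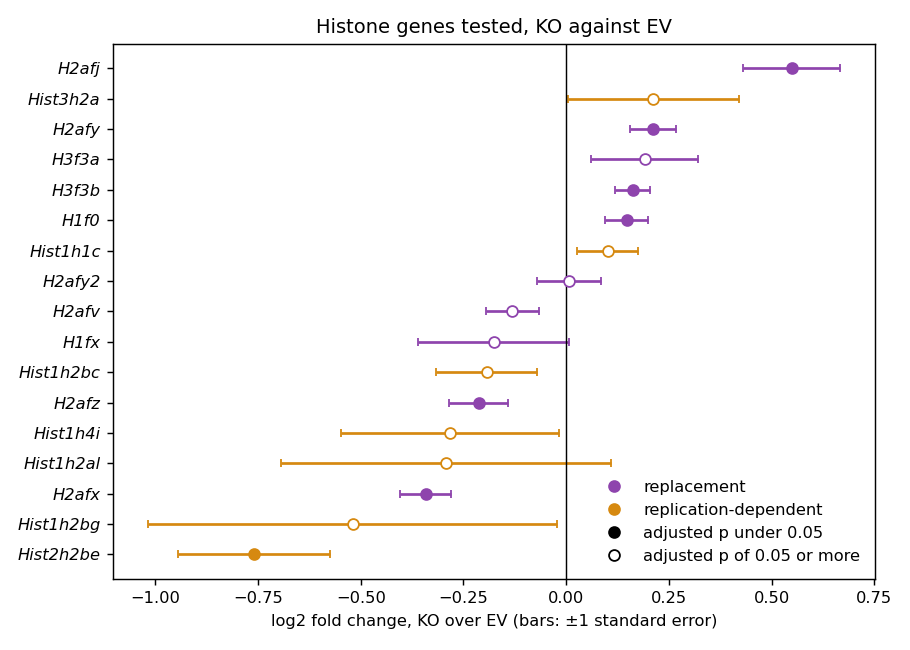
Log2 fold change of KO over EV for the 17 tested histone genes, with bars of 1 standard error, purple for replacement and orange for replication-dependent genes; filled points passed an adjusted p of 0.05. H2afj (0.55) and Hist2h2be (−0.76) lie at the ends, and 7 points are filled.

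One library of each group tended to be lowest in this gene family. KO replicate 4 was the lowest KO library for 11 of the 17 tested members, while it was the lowest for 22.2% of all 12801 tested genes. EV replicate 4 was the lowest EV library for 13 of the 17 tested members, against 32.3% of all tested genes. The 4 exceptions in EV were H2afv, Hist1h2al, Hist1h2bc and Hist2h2be. The ratio of EV replicate 1 to EV replicate 4 was 2.48 for H1fx, 1.94 for H3f3a and 1.75 for H2afj. Members within a library share its scaling, so these are not independent observations.

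Genes that supply and place histones were described from lists of their known roles. Of 13 tested genes for transcription of replication-dependent histone genes, 1 was higher and 2 were lower, near the 26.0% of all tested genes that passed, with a median log2 fold change of −0.026. Ccna2, a cyclin of S and G2 phase, averaged 38.6 ± 1.55 CPM in KO and 62.2 ± 4.86 CPM in EV (SD, n = 4 each; log2 fold change −0.69, SE 0.0617, edgeR adjusted p = 8.47e-08). Ccne1, the cyclin that with CDK2 phosphorylates NPAT, also fell (−0.46, edgeR adjusted p = 0.00767), and the transcription factor E2f1 rose (0.23, edgeR adjusted p = 0.0290). Npat itself stood at −0.059 (SE 0.0614, edgeR adjusted p = 0.521), and was picked out, like Slbp, after its values were seen. Pou2f1 is listed under 2 identifiers, both at 0.

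Of 25 tested genes for 3' end processing and decay of histone mRNAs, 3 were higher and 1 was lower, a smaller share than the 26.0% of all tested genes, with a median of 0.049. Lsm1, of the complex that binds oligouridylated histone mRNA during decay, rose (log2 fold change 0.29, SE 0.0778, edgeR adjusted p = 0.00865). Snrpe (0.20) and Snrpd3 (0.21), which encode Sm proteins of spliceosomal and U7 particles, passed at adjusted p-values of 0.0334 and 0.0335. Nup98, a nucleoporin gene, fell by 0.17 (edgeR adjusted p = 0.0462). Slbp, which encodes the stem-loop binding protein, stood at 0.053 (SE 0.0597, edgeR adjusted p = 0.557). Without KO replicates 2 and 3 none of this list passed in either direction.

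Of 43 tested histone chaperones and exchange factors none was higher and 17 were lower, with a median of −0.080. Among those lower were Oip5 (log2 fold change −0.77, edgeR adjusted p = 0.000258), which takes part in loading the centromeric histone, Hat1 (−0.34, 0.000932), which acetylates new H4, and Nasp (−0.26, 0.00122), which holds soluble H3 and H4. Cenpa, the centromeric H3 that lies outside the naming rule of the histone genes here, averaged 20.1 ± 0.363 CPM in KO and 27.1 ± 3.87 CPM in EV (SD, n = 4 each; log2 fold change −0.43, SE 0.0883, edgeR adjusted p = 0.00125). The spermatid histone Hils1 had 5 counts in all, and H2bfm had none. Of 35 tested genes of S phase and DNA replication none was higher and 18 were lower, with a median of −0.18, among them Rrm2 (−0.48, edgeR adjusted p = 2.29e-06), Cdc45 (−0.53, 0.000779), Tk1 (−0.36, 0.000998) and Mcm7 (−0.20, 0.00150). The share of all genes lower in KO was 13.4%, as above. Mcm2 stands in both lists. Without KO replicates 2 and 3, 9 chaperones and 9 replication genes were lower.

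**Figure D5:**
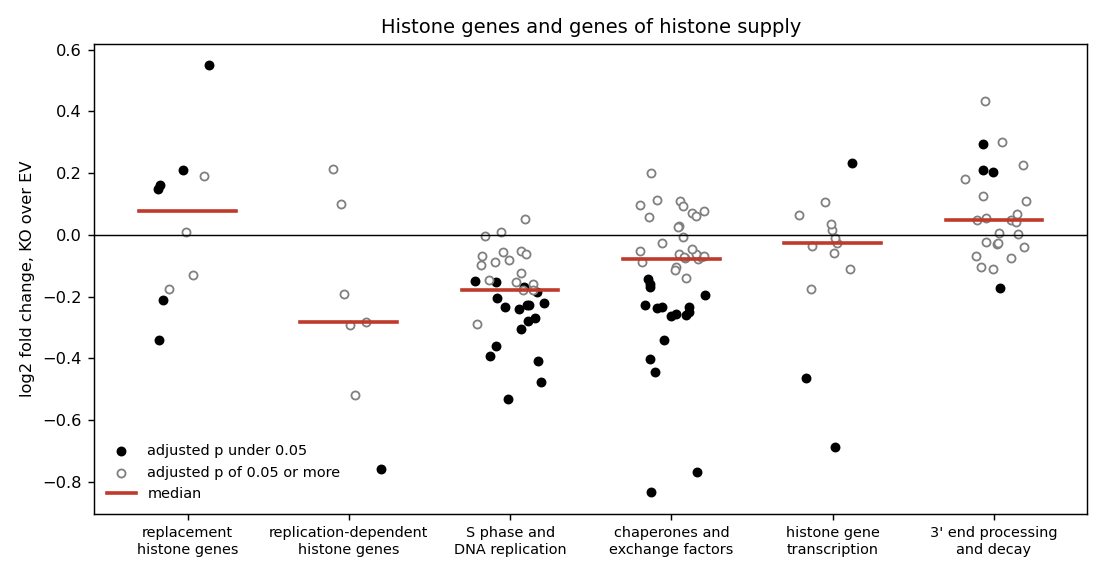
Log2 fold change of KO over EV for tested histone genes and for the 4 lists of genes that supply them, 1 point per gene, filled where the adjusted p was under 0.05, red bars at the medians. The replication-dependent (−0.28) and S phase (−0.18) medians lie below 0. Of the 7 replication-dependent genes, 6 were not called, and leaving out single libraries moved their median between −0.42 and −0.13. The replacement median (0.078) lies above 0 but at 0.0065 without EV replicate 4.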

How the data were processed

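Counts and FPKM values were used. The authors deposited raw counts per gene for 8 libraries, and FPKM values that equal counts divided by gene length and library total for 100% of nonzero values (within 1e-06). Per the submitters' processing notes the build was mm10 and DESeq 1.6.3 was named; the series design text names DESeq2. The sources used here do not name the aligner, counter, annotation release or strand setting. Counts were tested with edgeR 4.0.16 (R 4.3.3): TMM, filterByExpr (minimum count 10, minimum total 15), quasi-likelihood test, two-sided, Benjamini-Hochberg over 12801 genes, threshold 0.05. Standard errors are the log2 fold change over the square root of F. Scripts were tested on simulated data.

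Histone members and lists were chosen with earlier results of these data known. Named were all tested members, Hdac3 and at most 4 genes per list, taken in order of adjusted p among those under 0.05; a gene that this rule takes is not reported here. No replicate pair matched within counting noise (4.01 to 13.2 units of chi-square per degree of freedom). Nothing in the labels pairs the replicate numbers, and same-numbered libraries deviated together weakly at most (correlations −0.033 to 0.121), so the main fit took no block. Transcript features come from GENCODE M21, matched by Ensembl ID for 79 of 83 members, and promoters from RefSeq for 74. The search for words shared between genes used all annotated transcripts. The planned comparison of protein sequences and that with non-polyadenylated RNA classes were not made here. Alternatives were DESeq2 1.42.0, RLE scaling, library totals, other filters, limma 3.58.1 on log2 FPKM (pseudocount 1 or 0.1; filter of FPKM 0.5 in 4 libraries), a block for the replicate number, and libraries left out. The list counts under these settings were added after seeing the data.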

Additional observations from a re-analysis of the deposited data

Results flagged for a closer look

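Of 46 groups of 4 libraries checked for a value far from the rest (by the gap to the nearest library over the group's range), 1 was flagged. Chance flags about 1 in 20. The log2 ratio of H2afy to H2afy2 was 0.485 in KO replicate 2, while the next KO library stood at 0.760 and the highest at 0.796.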

How the results depend on the processing

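Direction and call of H2afx and Hist2h2be held in every setting, and H2afj lost its call only in limma on log2(FPKM + 1) with no filter. Counts of higher replacement genes were 2 with library totals, 1 in limma on log2(FPKM + 1) and log2(FPKM + 0.1), 0 there with no filter and 1 without KO replicates 2 and 3; lower ones were 1 in the last 2. Leaving out single libraries gave 3 to 5 higher and 1 to 2 lower. Replication-dependent genes gave 0 higher and 1 lower each time; their median was −0.016 with log2(FPKM + 1) and no filter and −0.42 to −0.13 without single libraries. Over all genes, library totals gave 1039 higher and 2414 lower, limma on log2(FPKM + 1) 896 and 2076, on log2(FPKM + 0.1) 897 and 2068, on log2(FPKM + 1) with no filter 766 and 1809, and the fit without KO replicates 2 and 3 880 higher and 1094 lower. Transcription genes called higher were 0 in these 5 settings and 1 lower without KO replicates 2 and 3 (without single libraries 0 to 1 higher, 2 to 3 lower). For 3' end processing, library totals and both filtered FPKM fits gave 1 higher and 2 lower, the unfiltered one and that without KO replicates 2 and 3 gave 0 and 0, and single libraries left out gave 1 to 3 and 0 to 2. DESeq2 called 1 chaperone higher. Without KO replicates 2 and 3, 9 chaperones and 9 replication genes were lower; without single libraries 12 to 17 and 13 to 18. The cause of these moves was not tested, though fewer libraries were fitted in the last kinds.

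H2afy2 turned negative with library totals (−0.042), log2(FPKM + 1) (−0.039 with and without filter), log2(FPKM + 0.1) (−0.041), without EV replicate 2 (−0.024) or 4 (−0.044), without KO replicate 2 (−0.052), and with KO replicates 2 and 3 left out (−0.065); single omissions gave −0.052 to 0.083. H1fx ranged over single omissions between −0.36 and 0.061 and Hist1h2al between −0.52 and 0.18, both positive without EV replicate 1. Without Hist1h1c, the log2 ratio of summed replication-dependent levels was −0.24. A minimum of 10 counts in a library left 19 detected genes.

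Deviations from the group means correlated at −0.033 to 0.121 between same-numbered libraries, against −0.111 to 0.057 between the others. For replicates 1, 3 and 4 the same-numbered value was the highest that either library had. All these values are small, and whether the number marks a shared batch was not tested. With the replicate number as a block 3737 genes passed, H3f3a passed (0.22, edgeR adjusted p = 0.0142) and 5 processing genes were higher.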

Other observations

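Of the 68 replication-dependent genes, 44, 38, 42 and 41 had a count in KO replicates 1 to 4, against 38, 49, 38 and 38 in EV replicates 1 to 4. The 61 genes below the filter summed to 197 counts in EV replicate 2, while no other library exceeded 139. Higher there than in the other EV libraries were Hist1h1e (19 counts against 2 to 5), Hist1h2be (22 against 7 to 16) and Hist1h4k (14 against 2 to 6), which were chosen after their values were seen.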
